A study of Caenorhabditis elegans with 12 samples.

Results

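The cyp-14A genes of Caenorhabditis elegans are a small family of cytochrome P450 genes, cyp-14A1 to cyp-14A5. They were found by symbol, and each of the 5 has 1 probe set on the array, among 20766 probe sets with a single gene name. The family was chosen by values measured on these arrays, the strong difference in cyp-14A4 and cyp-14A1 signal between the genotypes, so for those 2 genes every value below is a description with no test. Differences between the genotypes are described without a test for all 5 genes. Responses to RNAi were tested for the other genes of the family that passed the filter on low signals, cyp-14A2 and cyp-14A5.

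Cytochrome P450 enzymes are haem proteins that insert oxygen into fatty, poorly soluble molecules, both foreign compounds and the animal's own lipids. They take electrons from a shared reductase, encoded in the worm by emb-8. Their products are often passed to glucuronosyltransferases or glutathione S-transferases, which attach a soluble group, and then leave the cell through transporters. In the worm much of this chemistry takes place in the intestine, and families such as cyp-13A, cyp-14A, cyp-33C and cyp-35 have grown through gene duplication. The substrates of the individual CYP-14A enzymes were not given in the sources used here.

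RNA was taken from whole worms at the last larval stage, L4, after bleach synchronisation and growth in liquid culture, and hybridised to 12 Affymetrix expression arrays. There were 3 biological replicates for each of 4 groups, wild type and the mutant atfs-1(tm4525), each fed bacteria for control RNAi or for RNAi of spg-7, and both genotypes had the N2 background. ATFS-1 is a transcription factor that switches on genes when mitochondrial protein folding is disturbed. SPG-7 belongs to a quality-control protease in the inner membrane of mitochondria, and its loss is a common way to disturb them. Which part of atfs-1 the allele changes was not given in the sources used here. In whole animals, fewer cells of a type and less RNA per cell cannot be told apart.

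The array check of the treatment went against its name. The signal of spg-7 itself was 454 to 1057 on the wild-type control RNAi arrays and 7278 to 22348 on those labelled spg-7 RNAi, and in the mutant 313 to 450.004 and 9968 to 26208. So these arrays do not show how far spg-7 was silenced, and directions below are those of the labels. The atfs-1 signal was 370 to 454 and 586 to 996 in wild type and 386 to 523 and 555 to 618 in the mutant. The trimmed mean signal was between 500.1 and 500.2 throughout.

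In wild-type worms cyp-14A4 and cyp-14A1 were low on control RNAi and high on the arrays labelled spg-7 RNAi, and in the atfs-1 mutant both stood much lower on spg-7 RNAi. The other genes of the family, cyp-14A2, cyp-14A3 and cyp-14A5, did not show this. On spg-7 RNAi the wild-type signal of cyp-14A4 was 19.6-fold that of the mutant, as a ratio of geometric means, and that of cyp-14A1 was 5.88-fold.

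**Figure D1:**
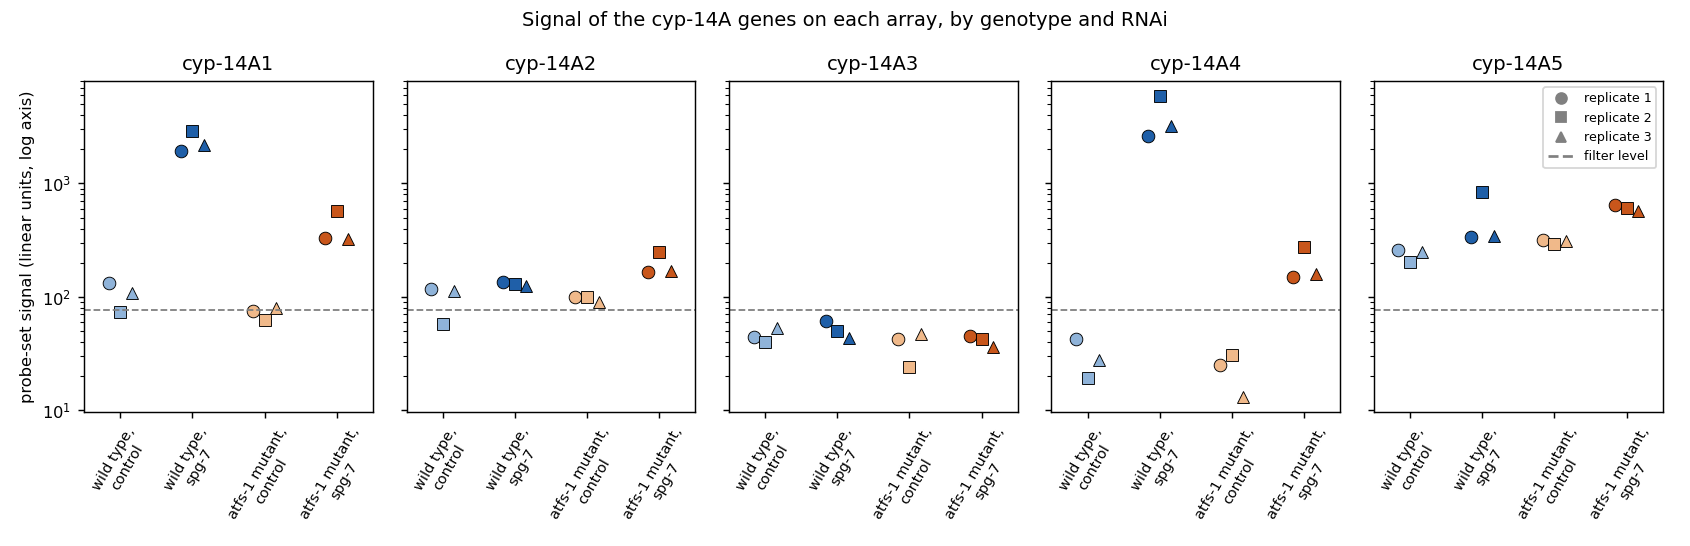
Probe-set signal of the 5 cyp-14A genes on each of the 12 arrays (linear units on a log axis), with the marker shape giving the replicate number and the dashed line the filter level of 76.0. On spg-7 RNAi cyp-14A4 and cyp-14A1 lay highest in wild type and between that and the controls in the mutant, while cyp-14A3 stayed under the dashed line on all arrays.

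The signal of cyp-14A4 on the wild-type control RNAi arrays was 42.6, 19.2 and 27.9 in replicates 1, 2 and 3. On the wild-type arrays labelled spg-7 RNAi it was 2597, 5901 and 3204. These groups were far apart, the lowest spg-7 RNAi array standing 61.0-fold above the highest control array.

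In the mutant the signal of cyp-14A4 was 25.2, 30.5 and 12.99 on control RNAi. It was 149, 276 and 158 on spg-7 RNAi. These groups did not overlap either, and the gap between the nearest arrays was 4.89-fold.

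The change of cyp-14A4 with spg-7 RNAi was 7.01 ± 0.45 in wild type and 3.12 ± 0.45 in the mutant (log2 difference ± SE from limma, n = 3 arrays a group). The difference between the 2 responses, mutant minus wild type, was -3.89 ± 0.64. On control RNAi the genotypes overlapped, with the mutant at -0.40 ± 0.45 against wild type. On spg-7 RNAi the mutant stood at 5.1% of the wild-type level, -4.29 ± 0.45 on the log2 scale, and the lowest wild-type array was 9.39-fold above the highest mutant array.

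All 6 control RNAi signals of cyp-14A4 lay under 76.0, the level below which probe sets were left out when their mean was that low, and the gene passed the filter through its spg-7 RNAi arrays. The size of its rise is therefore uncertain. With every signal below 76.0 raised to that level the rise was at least 48.2-fold in wild type (log2 5.59) and at least 2.46-fold in the mutant (log2 1.30). The difference between the genotypes on spg-7 RNAi does not involve these low values and was the same in that calculation, -4.29.

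The signal of cyp-14A1 on the wild-type control RNAi arrays was 132, 73.1 and 108. It was 1946, 2911 and 2175 on spg-7 RNAi. As for cyp-14A4, the groups did not overlap, with a gap of 14.7-fold between the nearest arrays.

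In the mutant cyp-14A1 stood at 74.1, 61.9 and 80.3 on control RNAi. On spg-7 RNAi it was at 329, 567 and 325. The gap between the nearest arrays was 4.05-fold here.

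The change of cyp-14A1 with spg-7 RNAi was 4.51 ± 0.32 in wild type and 2.45 ± 0.32 in the mutant. Mutant minus wild type, the responses stood -2.06 ± 0.45 apart. On control RNAi the mutant was at -0.50 ± 0.32 against wild type and the arrays overlapped. On spg-7 RNAi it was at 17.0% of the wild-type level (log2 -2.56 ± 0.32), and the lowest wild-type array was 3.43-fold above the highest mutant array.

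For both genes the order of the groups was the same: wild type on spg-7 RNAi highest, then the mutant on spg-7 RNAi, then both control groups, which overlapped and did not differ beyond their spread. In wild type the log2 change of cyp-14A4 exceeded that of cyp-14A1. In the mutant the order of the 2 changes depended on how low signals were treated. With 32 added before log2 the mutant responses were 2.02 for cyp-14A4 and 2.04 for cyp-14A1, and with signals raised to 76.0 they were 1.30 and 2.34.

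**Figure D2:**
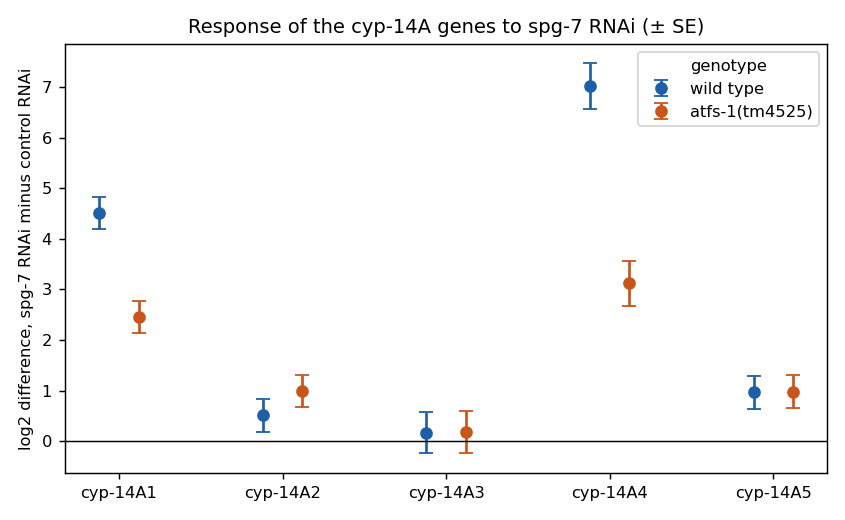
Log2 difference between spg-7 RNAi and control RNAi for each cyp-14A gene in wild type and in atfs-1(tm4525); points are estimates over 3 arrays a group and bars are ± SE from limma, with cyp-14A3 taken from a fit without the filter. The estimates for cyp-14A4 (7.01 and 3.12) and cyp-14A1 (4.51 and 2.45) are higher in wild type, while those for cyp-14A5 (0.97 and 0.98) are nearly equal. Since cyp-14A4 and cyp-14A1 were picked for a genotype difference, theirs is described without a test. Without replicate 2 of wild type on spg-7 RNAi the wild-type response of cyp-14A5 was 0.54.

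Replicate 2 had the highest signal in its group for several of these genes. In wild type on spg-7 RNAi it was the highest of 3 for cyp-14A4, cyp-14A1 and cyp-14A5, and in the mutant on spg-7 RNAi for cyp-14A4, cyp-14A1 and cyp-14A2. The spg-7 signal was highest on replicate 2 in wild type (22348) but on replicate 1 in the mutant (26208, against 17698 on replicate 2). Leaving out any 1 of the 12 arrays put the wild-type change between 6.67 and 7.30 for cyp-14A4 and between 4.28 and 4.70 for cyp-14A1.

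The gene cyp-14A2 lies next to cyp-14A1 on the X chromosome and was not picked for its values. Its signal in wild type was 117, 57.8 and 112 on the control arrays, against 136, 128 and 124 with spg-7 RNAi. The mutant values were 100.03, 98.97 and 89.8 for the controls, against 165, 246 and 170. The spg-7 RNAi arrays lay above the control arrays in both genotypes without overlap, by a margin of 1.07-fold in wild type and 1.65-fold in the mutant.

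Neither response of cyp-14A2 passed the test over all genes. It was 0.51 ± 0.32 in wild type (limma adjusted p = 0.412) and 0.99 ± 0.32 in the mutant (limma adjusted p = 0.265), where 3.29% and 0.944% of all genes were called higher. With replicate 2 of the wild-type controls left out, the wild-type response was 0.18 (limma adjusted p = 0.767), the genotype difference on control RNAi was -0.25 and the difference between responses moved from 0.48 to 0.81. On spg-7 RNAi the mutant arrays lay above the wild-type arrays, the reverse of the order seen for cyp-14A4 and cyp-14A1, with a log2 difference of 0.56 ± 0.32. On control RNAi the genotypes overlapped (0.08 ± 0.32).

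The gene cyp-14A5, on chromosome V and the 1 member outside the X chromosome, was measured through a probe set of the s type, which may also detect related transcripts. The wild-type controls had signals of 257, 204 and 248, against 338, 834 and 345 with spg-7 RNAi. The mutant controls had 319, 294 and 309, against 646, 603 and 572. The RNAi groups did not overlap in either genotype, and 1 wild-type array, replicate 2, stood well above the other 2 of its group.

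The response of cyp-14A5 was 0.97 ± 0.33 in wild type (limma adjusted p = 0.122) and 0.98 ± 0.33 in the mutant (limma adjusted p = 0.289), neither past the test. With replicate 2 of wild type on spg-7 RNAi left out, the wild-type response was 0.54 and the difference between responses moved from 0.02 to 0.44. On control RNAi the mutant arrays lay just above the wild-type arrays (0.38 ± 0.33, a margin of 1.14-fold), and on spg-7 RNAi the genotypes overlapped (0.40 ± 0.33).

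In the mutant same-numbered arrays tended to deviate together, which bears on these 2 genes. The labels give replicate numbers but no pairing of arrays. Deviations of same-numbered control and spg-7 RNAi arrays from their group means correlated at 0.29, 0.42 and 0.53 across genes. In wild type they correlated at 0.58, 0.12 and -0.10. Pairing was thus inferred for the mutant only, and it is uncertain. A fit of the 6 mutant arrays with the replicate number as a block called cyp-14A2 (limma adjusted p = 0.0395) and cyp-14A5 (0.0162) higher. It called 6.17% of all genes higher. In the mutant arrays alone without the block, where 1.95% of all genes were called higher, cyp-14A5 (limma adjusted p = 0.038) was called and cyp-14A2 was not (0.0915). Over the alternatives other than leaving out an array, the limma adjusted p of the mutant response ranged from 0.0395 to 0.378 for cyp-14A2 and from 0.0162 to 0.331 for cyp-14A5. The lowest values came from the mutant-only block, which was added after the data were seen. With any 1 array left out neither gene was called in the mutant, the lowest limma adjusted p being 0.135 for cyp-14A2 and 0.0848 for cyp-14A5.

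The gene cyp-14A3 did not pass the filter. Wild-type controls had signals of 44.5, 39.5 and 53.2, against 60.9, 49.9 and 43.6 with spg-7 RNAi. The mutant had 41.98, 24.2 and 46.8, against 45.4, 42.8 and 35.8. All 12 signals lay under 76.0 and all 4 groups overlapped, so no order of the groups can be read. In the fit without a filter its changes with spg-7 RNAi were 0.17 ± 0.41 in wild type and 0.18 ± 0.41 in the mutant.

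Counted together, the spg-7 RNAi arrays of 4 of the 5 genes lay above the control arrays without overlap in wild type, and those of 4 of 5 in the mutant; over all genes tested 9.99% and 13.1% did so. None lay below the controls, against 8.48% and 12.7% of all genes. This count includes the 2 genes picked for their values. On spg-7 RNAi the mutant lay below wild type without overlap for 2 of the 5, the 2 that were picked, and above it for 1, against 7.29% and 15.7% of all genes. On control RNAi the mutant lay above wild type for 1 of the 5 and below it for none, against 11.8% and 5.79%.

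Several array-wide measures varied between groups. The log2 difference between the 3′ and 5′ probe sets of the actin control, which rises as RNA is degraded or copied short, had a range of 0.43 to 0.62 over the wild-type controls, 0.82 to 0.85 with spg-7 RNAi, 0.41 to 0.48 over the mutant controls and 0.54 to 0.69 with spg-7 RNAi. It was thus highest where cyp-14A4 and cyp-14A1 were highest, and its part in the result was not tested. Of 12 intestine markers 10 were on the array, none with a signal under 76.0 on any array. Their summed signal was 46816 to 55748 and 40363 to 81092 in wild type on control and spg-7 RNAi, and 40863 to 60897 and 57345 to 82827 in the mutant. The intestine sums of the 2 spg-7 RNAi groups overlapped. All 6 neuron markers were on the array, none under 76.0, and summed to 6144 to 8745 and 6638 to 12018 in wild type and to 6772 to 7196 and 8026 to 11204 in the mutant. The mutant groups did not overlap in that sum, and its part in the mutant responses was not tested.

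Of 7 body wall muscle markers all 7 were on the array, none under 76.0. They summed to 57753 to 79942 and 34869 to 57041 in wild type and to 56118 to 66851 and 56553 to 64598 in the mutant, lower in wild type on spg-7 RNAi than on control RNAi. Their part in the result was not tested. The array held 5 of 6 hypodermis markers, 1 of them under 76.0 on replicate 1 of the wild-type controls. They summed to 67328 to 104875 and 56551 to 79450 in wild type and to 52719 to 87837 and 66130 to 77992 in the mutant. Of 6 yolk genes 5 were on the array, and their sum was 878 on wild-type control RNAi replicate 1, where 2 of them lay under 76.0, against 22779 to 114017 on all others. On wild-type spg-7 RNAi the sum was 23527 on replicate 1 and 90248 to 114017 on the others. The muscle sum was lowest on wild-type spg-7 RNAi replicate 3, at 34869. All 23 sperm markers were on the array and summed to 89081 to 521220 and 228572 to 351176 in wild type and to 410113 to 670659 and 465877 to 514170 in the mutant. The sperm sums of the 2 spg-7 RNAi groups did not overlap, the mutant standing higher, and the part of germ-line genes in the result was not tested. All 12 oocyte and embryo markers were on the array, and their sum was 5442 on replicate 1 of the wild-type controls and 27195 to 64145 on the others. It was 4908 on replicate 1 of wild type on spg-7 RNAi and 44758 to 88144 on the others, and it was 26080 to 47407 and 4370 to 32249 in the mutant. With replicate 1 of wild type on spg-7 RNAi left out, the wild-type change was 7.26 for cyp-14A4 and 4.63 for cyp-14A1. With replicate 1 of the wild-type controls and replicate 3 of wild type on spg-7 RNAi both left out, the wild-type change was 7.40 for cyp-14A4 and 4.75 for cyp-14A1.

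Genes with a pattern over the 12 arrays most like that of cyp-14A4 were found by the root mean square difference of log2 signals, each gene first centred on its own mean. The nearest of 10384 genes was R08F11.4, at 0.80, and the next was cyp-14A1, at 1.07. Then came cyp-13A8 (1.22) and cyp-33C8 (1.26), both P450 genes, and the glucuronosyltransferase gene ugt-2 (1.47). The values of cyp-14A4 itself spread by 2.99 about their mean on the same scale. R08F11.4 was also nearest to cyp-14A1 (0.59), followed by ugt-2 (0.72), ugt-61, another glucuronosyltransferase gene (0.77), the antimicrobial peptide gene abf-2 (0.79) and F59A7.2 (0.82), and cyp-14A4 stood 29th on that list. Since cyp-14A4 and cyp-14A1 were picked together for a genotype difference on these arrays, their closeness on both lists is a description only.

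The signal of R08F11.4 was 98.3, 91.7 and 75.1 on the wild-type controls, against 4224, 5493 and 3585 with spg-7 RNAi. The mutant had 65.0, 115 and 72.3, against 736, 1084 and 418. The groups thus lay in the same order as for cyp-14A4 and cyp-14A1, which is how the gene was found.

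**Figure D3:**
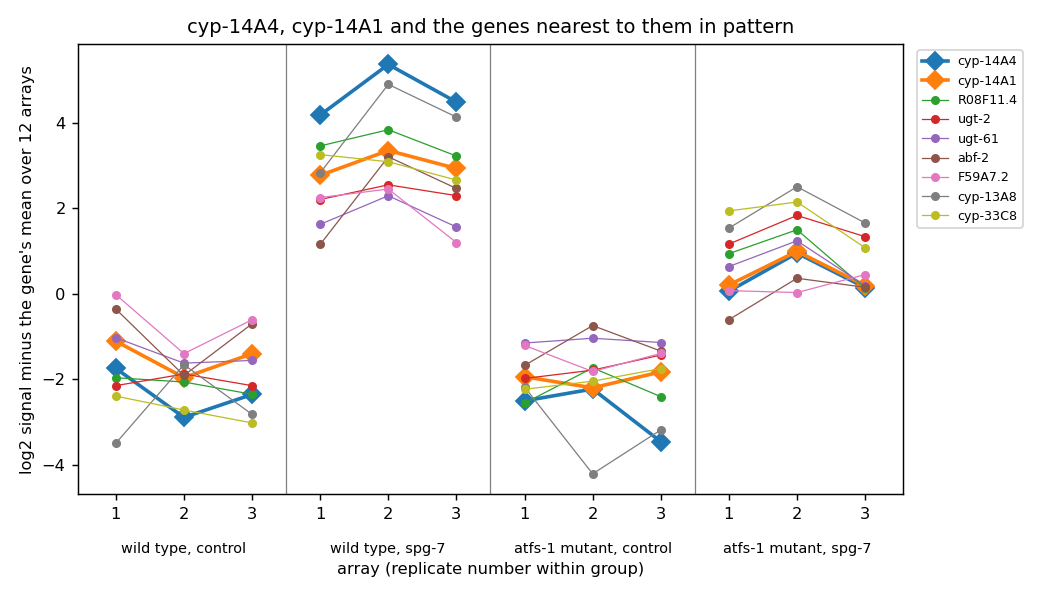
Log2 signal minus each gene's mean over the 12 arrays, for cyp-14A4 and cyp-14A1 (diamonds) and the genes nearest to them in pattern (circles), with the 3 replicates of each group side by side and joined only to guide the eye. All 9 genes are highest in wild type on spg-7 RNAi, each with no overlap with the other groups.

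The other members had flatter patterns. The genes nearest to cyp-14A2 were D1022.4 (0.22), F08G2.4 (0.23) and glr-6 (0.24), against a spread of its own of 0.50. Those nearest to cyp-14A5, with a spread of 0.61, were nhr-3, tth-1 and acl-12, at 0.24 to 0.25, and cyp-14A2 stood 86th. For cyp-14A3, with a spread of 0.32, they were panl-3, nosr-1 and mag-1, at 0.18 to 0.20.

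In the RefSeq annotation of assembly WBcel235 cyp-14A1, cyp-14A2 and cyp-14A3 follow each other with no other protein-coding gene between them, and cyp-14A4 follows after 1 more, phf-33. The genes with large responses, cyp-14A1 and cyp-14A4, are the outer members of this row and those with small ones lie between them. The gene phf-33 had a signal of 5.80 to 67.6 over all arrays, and K09A11.1, on the other side of cyp-14A1, stood at 87.3 ± 6.95 and 91.7 ± 29.6 in wild type and 64.5 ± 19.1 and 56.6 ± 21.4 in the mutant (mean signal ± SD, n = 3). Neither passed the filter.

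R04D3.2, on the other side of cyp-14A4, spanned signals of 10.7 to 189 and 26.6 to 369 in wild type, control before spg-7 RNAi, and of 15.5 to 82.3 and 6.84 to 35.6 in the mutant. F08F3.6, beside cyp-14A5, was at 5.62 to 404 and 78.7 to 847 in wild type and at 4.92 to 154 and 8.43 to 94.6 in the mutant. Replicates of both genes differed widely, and neither passed the filter. On spg-7 RNAi the genotypes overlapped for both. In the fit without a filter the mutant stood at -2.68 ± 1.15 against wild type there for R04D3.2 and at -3.13 ± 1.57 for F08F3.6 (log2 difference ± SE). The other neighbour of cyp-14A5, rhr-1, was at 2846 ± 899 and 2846 ± 480 in wild type and 2835 ± 553 and 1940 ± 291 in the mutant, with no call (limma adjusted p of 0.951 and 0.567 for the responses).

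Among the other P450 genes, members of the cyp-13A and cyp-33 families rose with spg-7 RNAi in both genotypes. Of 37 tested, out of 68 on the array, 8 rose and 2 fell in wild type and 5 rose and none fell in the mutant (limma adjusted p under 0.05), where 3.29% and 1.43%, and 0.944% and 0.221%, of all genes did. The totals behind these shares, 491 and 121 genes, were 222 to 1039 and 44 to 193 with any 1 array left out, both highest without replicate 1 of the wild-type controls and lowest without replicate 2 of the responding genotype's own spg-7 RNAi group. At an unadjusted p under 0.05, 1 was lower in the mutant. Their median log2 change was 0.58 in wild type and 0.52 in the mutant, against -0.04 and -0.02 for all genes. With replicate 1 of the wild-type controls left out, the mutant count of rises was 8. With replicate 3 of wild type on spg-7 RNAi left out as well, the wild-type count was 14. In that fit 1227 of 10385 genes were called in either direction, against 491.

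The largest rises among these were in cyp-13A8, cyp-13A5, cyp-33C8 and cyp-33E2, the same 4 in both genotypes. The gene cyp-33E2 went from 107 ± 17.7 to 1001 ± 272 in wild type (mean signal ± SD, n = 3) and from 134 ± 33.1 to 1095 ± 289.6 in the mutant. Its log2 changes were 3.20 and 3.03 (limma adjusted p, 2.1e-04 and 5.4e-04), and the difference between them was -0.17 ± 0.44 (limma adjusted p = 0.974). The fifth gene that rose in the mutant was cyp-33C9 (log2 1.53, limma adjusted p = 0.0182).

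The gene cyp-33C8 went from 275 ± 47.1 to 3790 ± 1322 in the mutant, a rise of 3.73 on the log2 scale (limma adjusted p = 1.0e-04), after 5.72 in wild type. On spg-7 RNAi its mutant level was at -1.28 ± 0.31 against wild type (limma adjusted p = 0.126). The difference between its responses was -1.98 ± 0.43 (limma adjusted p = 0.448), beside -2.06 ± 0.45 for cyp-14A1. That difference was -1.52 ± 0.91 for cyp-13A8 and 0.24 ± 1.03 for cyp-13A5 (limma adjusted p of 0.855 and 0.984). For cyp-13A8 the mutant rise was 5.09 and for cyp-13A5 6.51 (limma adjusted p of 0.0023 and 8.8e-04), after 6.62 and 6.26 in wild type. Their genotype differences on spg-7 RNAi were -2.06 ± 0.65 and -1.33 ± 0.73 (limma adjusted p of 0.19 and 0.402), beside -4.29 and -2.56 for cyp-14A4 and cyp-14A1. Control signals of both cyp-13A genes averaged under 76.0, which leaves the sizes of these changes loosely measured.

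**Figure D4:**
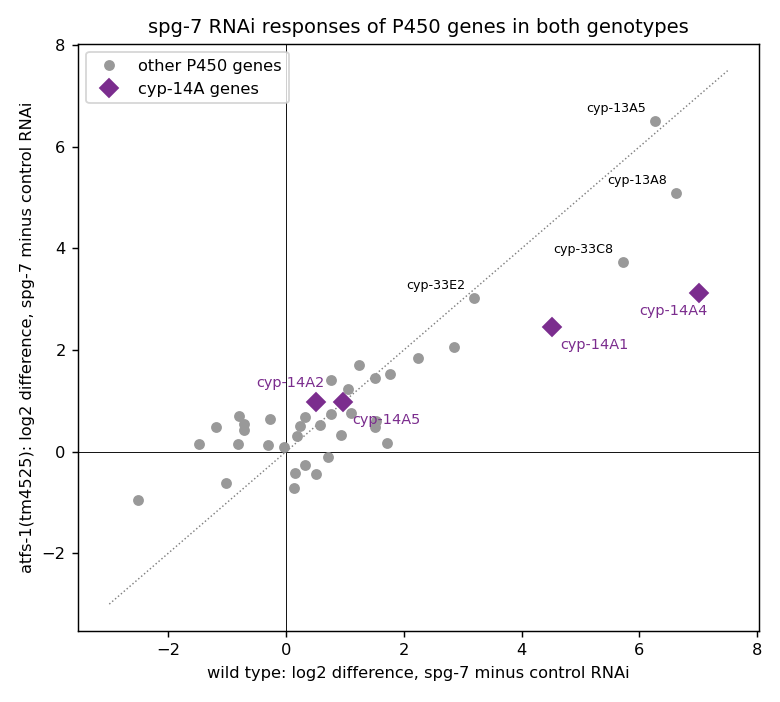
Log2 change with spg-7 RNAi in wild type (x axis) and in atfs-1(tm4525) (y axis) for the 41 P450 genes tested, 4 of them cyp-14A genes (diamonds); the dotted line marks equal responses. The points of cyp-14A4 and cyp-14A1 lie below the line, at 7.01 against 3.12 and 4.51 against 2.45. So do those of cyp-33C8 (5.72 against 3.73) and cyp-13A8 (6.62 against 5.09), while cyp-33E2 lies close to the line.

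None of the 37 other P450 genes was called between the genotypes with limma, either on control RNAi (2 higher and 0 lower at an unadjusted p under 0.05) or on spg-7 RNAi (3 higher and 4 lower). Of all genes 0% were called on control RNAi, and 0.00963% were called higher and 0.0867% lower on spg-7 RNAi, 10 genes in all. That total rested on single arrays: it was 587 with replicate 1 of the wild-type controls left out, and 0 without replicate 2 of wild type on spg-7 RNAi or without replicate 1 or 3 of the mutant on spg-7 RNAi. The difference between the 2 responses gave no call among all 10385 genes, where 647 had an unadjusted p under 0.05. The 2 P450 genes that fell in wild type, named here after their values were seen, were cyp-35C1 (log2 -2.52, limma adjusted p = 0.0045) and cyp-35A3 (-1.48, 0.0055), and none of the 5 genes of the cyp-35 family that were tested rose.

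The P450 reductase gene emb-8, which serves the CYP-14A enzymes as it does other P450s of the endoplasmic reticulum, rose 2.27-fold in wild type. It went from 964 ± 169 to 2214 ± 563 (limma adjusted p = 0.0318). In the mutant it stood at 667 ± 51.1 and 1182 ± 397 (limma adjusted p = 0.334), and the difference between responses was -0.41 ± 0.39 (adjusted p = 0.922). The cytochrome b5 genes cytb-5.1 and cytb-5.2, further electron donors, were not called in either genotype, with log2 changes of 0.53 and 0.16 in wild type and 0.76 and 0.40 in the mutant.

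Of 45 glucuronosyltransferase genes 9 rose and none fell in wild type (1 lower at an unadjusted p under 0.05), and 8 rose and 2 fell in the mutant by limma. The shares of all genes called higher and lower were 3.29% and 1.43% in wild type and 0.944% and 0.221% in the mutant. The gene ugt-2 rose 21.3-fold in wild type, and in the mutant 9.06-fold, from 262 ± 51.4 to 2386 ± 598 (limma adjusted p = 7.9e-05). Those that fell in the mutant, named after their values were seen, were ugt-26 (log2 -2.12) and ugt-31 (-2.03). Of 24 glutathione S-transferase genes 5 rose in wild type (3.29% of all genes) and 4 in the mutant (0.944%), and none fell (2 and 0 lower at an unadjusted p under 0.05). In both genotypes these included gst-39, gst-7 and gst-6, with gst-33 and gst-4 in wild type and gst-38 in the mutant. Among them gst-7 rose 3.57-fold in the mutant (limma adjusted p = 0.0015). Of 10 P-glycoprotein transporter genes 1 rose in each genotype (3.29% and 0.944% of all genes), pgp-9, and 1 fell in the mutant (0.221%), pgp-5 (log2 -2.27, limma adjusted p = 0.0138). The rise of pgp-9 was 10.5-fold in wild type ( from 337 ± 58.8 to 3935 ± 1984, limma adjusted p = 6.7e-04) and 5.74-fold in the mutant (limma adjusted p = 0.0098).

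Of 12 regulators linked to detoxification 10 were tested, and 1 rose and 1 fell in wild type by limma, where 3.29% and 1.43% of all genes did. The nuclear hormone receptor gene nhr-8, known for xenobiotic resistance in the worm, went from 234 ± 40.6 to 822 ± 354 (log2 1.71 ± 0.37, limma adjusted p = 0.0238). The nuclear hormone receptor gene nhr-114 went from 504 ± 213 to 162 ± 35.2 (log2 -1.58 ± 0.39, limma adjusted p = 0.0432). In the mutant none of the 10 was called (1 higher and 0 lower at an unadjusted p under 0.05), with nhr-8 at 0.91 ± 0.37 and nhr-114 at -0.58 ± 0.39. The difference between responses was not called for either, at -0.80 ± 0.52 for nhr-8 and 1.00 ± 0.55 for nhr-114 (limma adjusted p of 0.878 and 0.836).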

How the data were processed

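The deposited values are probe-set signal intensities on a linear scale, which per the submitters' processing notes the authors made with MAS5 (no version or settings given). The deposited table held 22625 probe sets, with no detection calls. The 77 control probe sets were set aside. Signals under 1 were set to 1 before log2. Probe sets in the lowest 40% by mean, a signal under 76.0, were dropped, and of several single-name probe sets for a gene the brightest was kept, which left 10385 genes. Version 3.58.1 of limma (R 4.3.3) fitted 1 mean for each group of all 12 arrays, moderating variances along a trend, and p values were Benjamini-Hochberg adjusted over all genes within each of 5 comparisons (called under 0.05). Fold changes are powers of the fitted log2 differences. The number of arrays limits the precision.

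The family, its members and the gene and marker lists were chosen with earlier results of these data known. Outside the family, the rule named the 4 called P450 genes with the largest change in each response. It also named up to 2 of each other enzyme or transporter list, all electron donors and all called regulators. Neighbours on the chromosome and nearest patterns were named too. Any further P450, glucuronosyltransferase, glutathione S-transferase and P-glycoprotein genes were named after their values were seen. Replicate numbers were taken to pair the arrays where every same-numbered correlation was over 0.1, which held for the mutant response only; in wild type the correlations were 0.58, 0.12 and -0.10. Alternatives were quantile normalisation, median centring, adding 32 before log2, other filters, fits of 2 groups at a time, no variance trend, a replicate block, all probe sets and leaving out each array. Raising signals to the filter level, the mutant-only block, leaving out 2 wild-type arrays and the P450 counts without each array were added after seeing the data. Sequences were not used here. Plots used matplotlib 3.10.9 (Python 3.11.15).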

Additional observations from a re-analysis of the deposited data

How the results depend on the processing

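The directions of the cyp-14A4 and cyp-14A1 responses and of their genotype differences on spg-7 RNAi were the same in every alternative that gave a value. The genes were picked by values on these arrays and the groups did not overlap, so this is a description and no test. With the lowest 60% left out, cyp-14A4 and cyp-14A2 had no value. With 32 added before log2, cyp-14A4 changed by 5.92 in wild type and 2.02 in the mutant, cyp-14A1 by 4.13 and 2.04, and 8 other P450 genes rose in the mutant. Of all genes 158 were called there in either direction, against 121 in the main fit. With signals raised to the filter level, cyp-14A4 changed by 5.59 and 1.30, and 8 other P450 genes rose in the mutant, where 199 of all genes were called. Quantile normalisation put the cyp-14A5 genotype difference on control RNAi at 0.24. With the groups of a comparison only, 4 other P450 genes rose and 0 fell in wild type and 9 rose in the mutant, and cyp-14A5 was called in the mutant (0.98, limma adjusted p = 0.038). Those fits called 84 of all genes in wild type and 320 in the mutant. With the lowest 60% left out 5 and 3 rose, where 400 and 71 of 7023 genes tested were called. With replicate 1 of the wild-type controls and replicate 3 of wild type on spg-7 RNAi left out, 14 rose in wild type, where 1227 of all genes were called. Replicate 1 of wild type on spg-7 RNAi, low in yolk and oocyte markers, was kept in that fit. Otherwise the cause was not tested.

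With the replicate number as a block in the mutant arrays alone, cyp-14A2 (0.99) and cyp-14A5 (0.98) were called, and 11 other P450 genes rose and 1 fell. That fit called 1169 of all genes in either direction. With the block over all 12 arrays neither was called (limma adjusted p of 0.312 and 0.315), and it changed no other call of the family. Without each array in turn, the difference between the cyp-14A5 responses was -0.21 to 0.44, and 4 to 8 other P450 genes rose in the mutant. Depth of signal limits cyp-14A3 and the control levels of cyp-14A4, which lay under the filter level throughout.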
